A study of Mus musculus with 2 samples.

Results

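Mast cells of mouse colon tumours were taken from 2 single-cell RNA libraries, 1 for each genotype. The library labelled KO came from ECM1Flox/Flox, Villin-Cre animals, in which both Ecm1 alleles are flanked by recombination sites and Cre is driven by the Villin promoter, active in intestinal epithelium. The library labelled WT carried the same floxed alleles without Cre. The labels do not state the number of animals per library, their age, the tumour model or which Ecm1 exons are flanked. A barcode, the sequence tag that stands for a droplet, counted as a mast cell under a fixed set of conditions. It needed at least 200 genes, under 20% mitochondrial unique molecular identifiers (UMIs, tags that mark each captured RNA molecule) and a UMI in at least 3 of 8 marker genes. The markers were Cpa3, Mcpt1, Mcpt2, Mcpt4, Tpsb2, Cma1, Fcer1a and Ms4a2, and Cpa3, Fcer1a or Ms4a2 had to be among those found. Epcam, Krt8 and Krt18 together had to stay below 10 per 10000 UMIs, and Cd3e and Cd79a at 0. These conditions held for 47 of 4387 barcodes that passed the filter in the library labelled KO and for 272 of 8895 in that labelled WT, 319 of 13282 in all. Where 2 values are given together below, the KO-labelled library comes first.

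Mast cells are long-lived tissue cells that arise from bone marrow progenitors and depend on the receptor Kit. They store histamine, serotonin in rodents, and proteases bound to proteoglycan in secretory granules, and release them when IgE on the high-affinity receptor is cross-linked by antigen. In mice, mast cells of the gut epithelium carry the mucosal chymases Mcpt1 and Mcpt2, while those of the submucosa and other connective tissue carry Mcpt4, Cma1 and the tryptase Tpsb2, with Cpa3 in both. Members of the chymase and tryptase families are close in sequence, so the split of reads among them by the authors' counting is uncertain for each value below.

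The 8 marker genes chose the barcodes, so their levels are a description. Mcpt1 and Mcpt2 stood far above the rest. Mcpt1 was at 49291 and 51034 UMIs per 1000000 UMIs of the mast cells (CPM) and Mcpt2 at 48270 and 49339 CPM. Together they made up 9.76% and 10.0% of all mast cell UMIs. The carboxypeptidase Cpa3 followed at 5392 and 4450 CPM, the chymase Cma1 at 2685 and 2259, the chymase Mcpt4 at 2417 and 3026, and the tryptase Tpsb2 at 2417 and 1778. The IgE receptor subunits Fcer1a, which binds the antibody, and Ms4a2, which amplifies the signal, were at 1119 and 921 CPM and at 526 and 476 CPM. The KO over WT ratios of Mcpt4 and Cma1 were 0.80 and 1.19, but 0.46 and 0.78 at an epithelial limit of 2 per 10000. Of the 47 KO-labelled barcodes, 18 had all 8 genes and 3 had the minimum of 3. In the WT-labelled library 63 of 272 had all 8, and 22 had the minimum. Just inside the rule, barcodes with 3 marker genes held a median of 3.46 and 23.1 marker UMIs per 10000. Just outside it, 10 and 38 barcodes with 2 marker genes held 3.29 and 10.1.

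Most barcodes were rich in marker RNA, but a few were not, and they matter for several results. The median barcode held 1028 and 953 marker UMIs per 10000. Below 50 per 10000 lay 5 barcodes of the KO-labelled library and 17 of the WT-labelled one, a limit chosen after the values were seen. These 5 KO-labelled barcodes held 22.4% of the mast cell UMIs of their library, against 8.72% for the 17. None of the 5 had a UMI of Kit or of Gata2, a transcription factor of the lineage. Among the 5, 2 carried at least 2 of 4 fibroblast markers and 3 carried at least 2 of 6 macrophage markers. Among the 17, 13 carried at least 2 of 5 neutrophil markers. Values are therefore given for all barcodes that met the rule and, where they differ, for the marker-rich barcodes with at least 50 marker UMIs per 10000, which number 42 and 255.

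**Figure D1:**
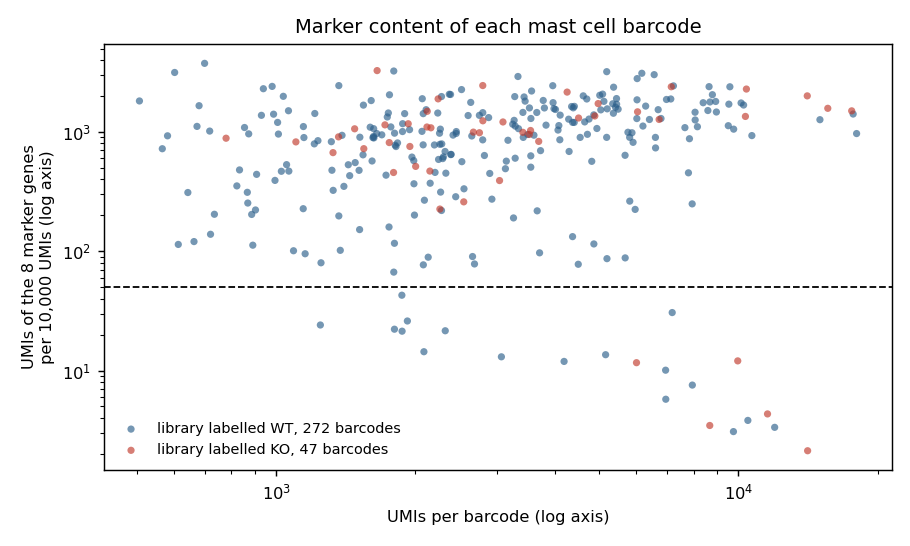
Each point is 1 barcode that met the mast cell rule, placed by its UMIs (x axis, log) and by UMIs of the 8 marker genes per 10000 (y axis, log). The dashed line is at 50 per 10000: 5 KO-labelled and 17 WT-labelled barcodes lie below it, the KO-labelled ones among the deeper barcodes.

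Genes that the rule did not name followed the markers. Ranked by the lower of the 2 libraries' ratios of mast cells to all other barcodes, the leading 15 genes held 5 further proteases or a protease pseudogene: Tpsab1, Mcpt9, Mcpt-ps1, Cma2 and Tpsg1. Tph1, which starts serotonin synthesis, was at 745 and 688 CPM in mast cells and at 2.23 and 4.44 CPM in the other barcodes. Slc18a2, the transporter that loads histamine and serotonin into granules, was at 232 and 327 CPM against 0.853 and 2.37. Cyp11a1, the enzyme of the first step of steroid synthesis, was at 308 and 296 CPM against 0.826 and 1.78. The list also held Gata2 at 575 and 582 CPM, Kit, Il1rl1, Alox5, Car8, Scin and Rgs18. The barcodes were grouped on genes of the same cells, so these ratios are no test.

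**Figure D2:**
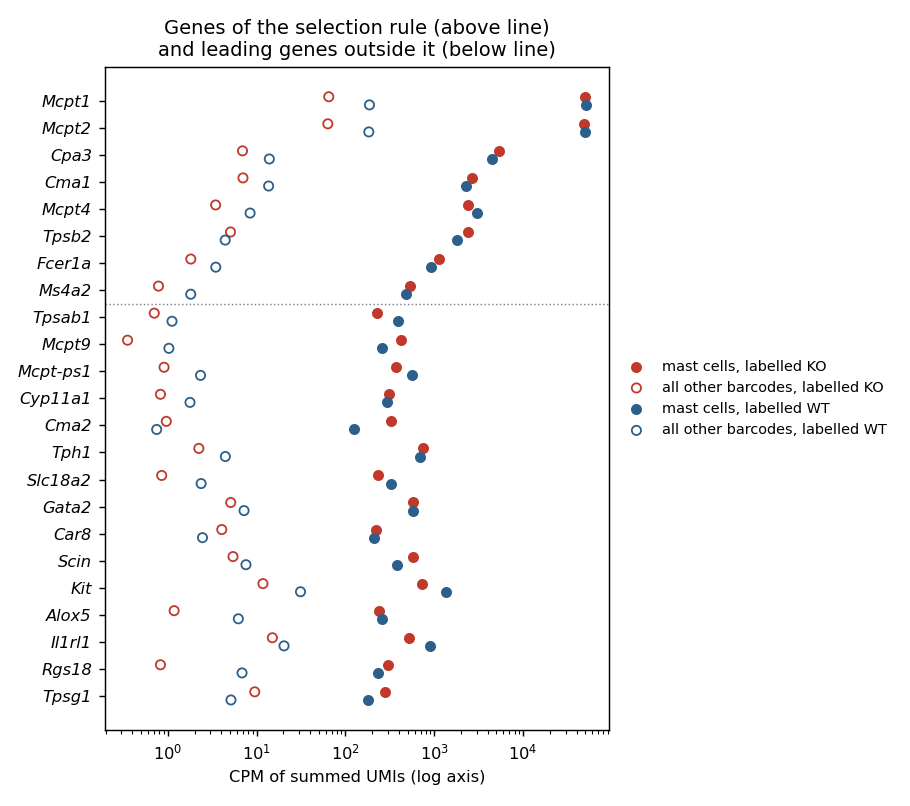
Levels of the 8 rule genes (above the dotted line) and the 15 leading genes outside the rule (below it), in CPM on a log axis. Filled points are mast cells and open points all other barcodes that passed the filter; Tph1, for example, is at 745 and 688 CPM in mast cells and at 2.23 and 4.44 CPM elsewhere.

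Markers of most other cell types were lower in mast cells than in the other barcodes, but not absent. Neutrophil markers had a UMI in 8 of 47 KO-labelled and 180 of 272 WT-labelled mast cell barcodes, with 287 and 6490 UMIs over 5 genes (1280 and 6521 CPM, against 1917 and 18504 in the other barcodes). Neutrophil RNA was also widespread outside neutrophils of the WT-labelled library. S100a8 had a UMI in 37.8% of its barcodes with T cell markers against 6.62% in the KO-labelled library, at median depths of 2582 and 3302 UMIs. Summed over 6 genes, macrophage markers held 73 and 503 UMIs. In marker-rich barcodes Adgre1 and Csf1r were at 0 in the KO-labelled library. Of 4 fibroblast markers, 428 UMIs were found in the KO-labelled barcodes and 0 in the WT-labelled ones. Of the 428, 426 lay in the 5 barcodes with little marker RNA. In the KO-labelled library fibroblast markers were thus at 1909 CPM, above the 359 of the other barcodes, but at 11.5 CPM in marker-rich ones. T cell markers stood at 26.8 and 25.1 CPM, epithelial markers at 317 and 271 CPM against 9742 and 5562 in the other barcodes, and B and plasma cell markers at 138 and 59.3 CPM. Endothelial markers stood at 169 and 120 CPM, above the 112 and 24.2 of the other barcodes, and nearly all of their UMIs were of Pecam1, which leukocytes also express (32 of 38 and 117 of 119). Itga2 of the 3 basophil markers was at 0 in the KO-labelled barcodes. Mcpt8, a protease known from basophils, had 32 and 168 UMIs, and 84.4% and 84.5% of these lay in 2 and 13 barcodes with at least 4 each. Those barcodes held medians of 1947 and 1413 mast cell marker UMIs per 10000.

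Promoters of the marker genes are shown because these genes define the cells and because the lineage factor Gata2 was among the leading genes. The sequences are the 250 bases before the start site, from RefSeq on mouse build GRCm38.p6, while the counts were made on GRCm39. The table held 6 of the 8 marker genes. Capitals mark a GATA-type word on either strand. These words are AGATAA and the variant AGATAG, and TGATAA with its variant TGATAG. A match to AGATAA on the other strand reads TTATCT. All 4 promoters are written in the direction of their gene, on the minus strand for Cpa3 (chr3:20242182-20242431), Mcpt4 (chr14:56062311-56062560) and Ms4a2 (chr19:11623720-11623969) and on the plus strand for Mcpt1 (chr14:56017714-56017963).
Cpa3: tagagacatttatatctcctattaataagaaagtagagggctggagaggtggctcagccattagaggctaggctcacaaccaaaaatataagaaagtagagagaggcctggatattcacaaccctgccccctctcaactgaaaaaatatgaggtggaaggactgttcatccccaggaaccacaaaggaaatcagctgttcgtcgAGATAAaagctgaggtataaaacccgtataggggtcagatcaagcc
Mcpt1: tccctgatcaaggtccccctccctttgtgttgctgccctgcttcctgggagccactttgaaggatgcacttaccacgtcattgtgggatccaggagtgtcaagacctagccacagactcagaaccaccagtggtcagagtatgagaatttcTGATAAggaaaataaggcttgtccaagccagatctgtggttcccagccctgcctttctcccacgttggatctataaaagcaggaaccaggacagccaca
Mcpt4: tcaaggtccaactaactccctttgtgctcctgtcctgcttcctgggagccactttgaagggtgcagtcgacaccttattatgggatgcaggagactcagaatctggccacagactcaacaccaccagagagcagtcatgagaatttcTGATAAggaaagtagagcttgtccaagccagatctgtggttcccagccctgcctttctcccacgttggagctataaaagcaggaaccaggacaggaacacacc
Ms4a2: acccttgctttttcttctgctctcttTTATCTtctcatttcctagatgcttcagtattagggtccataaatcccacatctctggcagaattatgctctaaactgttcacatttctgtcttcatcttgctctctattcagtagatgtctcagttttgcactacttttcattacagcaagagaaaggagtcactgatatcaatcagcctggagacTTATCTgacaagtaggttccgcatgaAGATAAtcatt
The word lay 46 bases before the start of Cpa3, 99 before that of Mcpt1 and 103 before that of Mcpt4. Ms4a2 had 3 matches, at 224, 37 and 11 bases. Mcpt1 and Mcpt4, a mucosal and a connective tissue chymase, shared an identical run of 53 bases nearer the start, without a GATA-type word in it. At least 1 of the 4 words was found in the promoters of 6 of 6 marker genes and in 8 of 16 promoters of the 10 leading genes in the table, against 26.5% of 32851 promoters of the same length. The words were settled after looking at these promoters. Counting AGATAA and TGATAA alone, 5 of 6 marker genes, 3 of 10 leading genes (in any of their promoters, here and for the next words) and 16.6% of all promoters held a match. In all 7 words were searched. The other 3 were E-box words, CACCTG as well as CATCTG and its reverse complement CAGATG, and they were in 0 of 6 marker genes. CACCTG was in 2 of 10 leading genes and 17.2% of all promoters, and the other 2 in 0 of 10 and 14.4%. A match is a run of letters and no evidence of binding.

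Mast cells were 1.07% of the KO-labelled barcodes (95% exact Clopper-Pearson interval 0.788% to 1.42%) and 3.06% of the WT-labelled ones (2.71% to 3.44%), a 2.85-fold difference. Its size depended on what they were counted against and on the epithelial limit. The KO-labelled library was richer in epithelial barcodes. By epithelial markers they were 2568 of its 4387 barcodes that passed the filter, against 2237 of 8895 in the WT-labelled library. Among barcodes with a UMI of the leukocyte gene Ptprc, mast cells were 2.03% and 2.70%, a 1.34-fold difference with overlapping intervals (1.34% to 2.93% and 2.31% to 3.15%). The epithelial limit removed 77 KO-labelled and 60 WT-labelled barcodes that met the marker conditions. With no epithelial limit the shares were 2.44% and 3.69%, and with a limit of 2 per 10000 they were 0.615% and 2.53%. Intervals here and below cover counting error only. With 1 library per genotype there was no test, and genotype, library preparation, animal and sex cannot be told apart.

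The libraries also differed in sex genes within the mast cells. Xist had 368 and 0 UMIs, and the Y-linked Ddx3y 0 and 170. Mast cell barcodes had medians of 2799 and 2672 UMIs and totals of 224240 and 995267, and 1 of 47 and 28 of 272 lay below 1000 UMIs. The libraries share 17 barcode sequences, of which 2 are mast cells in one of them. Ecm1, the floxed gene, had 16 and 44 UMIs in mast cells, or 71.4 CPM (40.8 to 116) and 44.2 CPM (32.1 to 59.3), a ratio of KO over WT of 1.61 (0.85 to 2.92). Cre is driven by a promoter of the intestinal epithelium, and the flanked exons are unknown. A value from mast cells therefore does not check the labels.

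Ratios below are CPM in the KO-labelled over the WT-labelled mast cells, with an exact conditional 95% interval, for genes with at least 50 UMIs over both. A gene counts as past 2-fold at a ratio of at least 2 or at most 0.5. Of 3196 genes tested, 201 (6.29%) were past 2-fold higher and 311 (9.73%) past 2-fold lower. In marker-rich barcodes these shares were 5.14% and 10.9% of 2762. The median log2 ratio of all genes was 0.01. Counts of list members below are read against these shares. The ratios rest on few cells: for the median tested gene, the 5 barcodes with most of its UMIs held 57.1% of them in the KO-labelled mast cells and 19.2% in the WT-labelled ones.

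Of the 24 genes tested on the granule list, 1 was past 2-fold higher and 0 lower. Their median log2 ratio was 0.26 against 0.01 for all genes. Marker-rich barcodes gave 3 of 21 higher, 0 lower and a median of 0.44. The one gene higher in all barcodes was Gzmb, the serine protease granzyme B, at 954 and 380 CPM (ratio 2.51, 2.12 to 2.98). It was unevenly spread, with a UMI in 44.7% and 26.5% of barcodes and 70.6% of the KO-labelled UMIs in 5 barcodes, and at the epithelial limit of 2 its ratio was 1.66. Cd63, a tetraspanin of the granule membrane, was at 5124 and 2829 CPM (1.81, 1.69 to 1.94), and at a ratio of 2.10 in marker-rich barcodes. The Cd63 ratio was also above 1 in the other cell classes. It was 1.92 with neutrophil markers, 1.74 with macrophage, 1.61 with epithelial and 1.30 with T cell markers. Rab27b, a GTPase of granule docking, was at 250 and 146 CPM (1.71, 1.24 to 2.35) and at 2.02 in marker-rich barcodes. The proteoglycan core Srgn, at 3599 and 2977 CPM, and the histamine-forming enzyme Hdc, at 330 and 247 CPM, had ratios of 1.21 and 1.34. Cma2, a chymase outside the list, was at 326 and 124 CPM (2.63, 1.94 to 3.55), and at 3.10 in marker-rich barcodes. All of its KO-labelled UMIs lay in 5 barcodes, and its ratio was 1.14 with each barcode weighted equally and 0.57 without the 5 deepest barcodes of each library. Tpsab1, a tryptase, went the other way at 227 and 388 CPM (0.59, 0.43 to 0.79).

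Genes of IgE receptor signalling were near even in their median. Of 16 tested, 0 were past 2-fold higher and 2 lower, where 9.73% of all genes were lower. Their median log2 ratio was -0.12. The shared gamma chain Fcer1g was at 2453 and 1559 CPM (1.57, 1.43 to 1.74). The adaptor Lat2 was at 415 and 361 CPM (1.15, 0.91 to 1.45) and the kinase Lyn, the first to act on the receptor, at 236 and 270 CPM (0.87, 0.64 to 1.18). The 2 lower genes were the kinases Syk and Btk, which act downstream, and both calls rested on few KO-labelled UMIs. Syk had 9 and 106 UMIs (ratio 0.38, 0.17 to 0.74) and Btk 5 and 85 (0.26, 0.08 to 0.63). Syk was at 0.54 with each barcode weighted equally.

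Receptors for growth factors and alarmins included Kit and Il1rl1, both lower but short of 2-fold. Kit, the receptor for stem cell factor, was at 731 and 1355 CPM (0.54, 0.46 to 0.64), and at 0.64 in marker-rich barcodes. It had a UMI in 80.9% and 87.9% of mast cells, and in 11.1% and 12.9% of barcodes with T cell markers. In the other cell classes its ratio lay between 0.55 in barcodes with epithelial markers and 0.77 in those with macrophage markers. Il1rl1, the receptor for interleukin-33, was at 522 and 902 CPM (0.58, 0.47 to 0.70), and at 0.68 in marker-rich barcodes. Crlf2, part of the receptor for thymic stromal lymphopoietin, was at 205 and 109 CPM (1.89, 1.31 to 2.69). The shared beta chains Csf2rb and Csf2rb2 had ratios of 0.89 and 0.73. None of the 11 tested genes was past 2-fold in all barcodes. In marker-rich ones 1 of the 11, Crlf2, was past 2-fold higher and 0 lower, where 5.14% of all genes were higher.

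Of 18 G protein-coupled and inhibitory receptors tested, 6 were past 2-fold lower and 0 higher, where 9.73% of all genes were lower. The median log2 ratio of the 18 was -0.41. Several of these calls rested on few UMIs. Cd33, an inhibitory lectin, had 6 and 121 UMIs (0.22, 0.08 to 0.49), and Cxcr4, a chemokine receptor, 4 and 86 (0.21, 0.06 to 0.55), with 0.08 in marker-rich barcodes and 0.39 with doublets removed. Mrgprb2, the receptor through which basic peptides activate connective tissue mast cells, had 3 and 70 UMIs (0.19, 0.04 to 0.58). The inhibitory receptors Lilr4b, at 276 and 567 CPM (0.49, 0.37 to 0.64), and Cd200r4, at 75.8 and 155 CPM (0.49, 0.28 to 0.81), were close to the limit. Both were short of it in marker-rich barcodes, at 0.58 each.

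The lineage transcription factors Gata2 and Mitf had ratios near 1. Gata2 was at 575 and 582 CPM (0.99, 0.81 to 1.20), Mitf, the microphthalmia factor needed by mast cells, at 75.8 and 82.4 CPM (0.92, 0.51 to 1.56), and Runx3 at 499 and 648 CPM (0.77, 0.62 to 0.94). Of 16 tested, 1 was past 2-fold higher and 2 lower. The higher one was Spi1, a myeloid factor, at 210 and 104 CPM (2.03, 1.40 to 2.89). It was at 1.41 in marker-rich barcodes, so this call rested on barcodes with little marker RNA. Hes1, a Notch target, was at 562 and 334 CPM (1.68, 1.36 to 2.07).

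Genes of lipid mediators were mostly within 2-fold. Of 11 tested in all barcodes, 1 was past 2-fold lower and 0 higher, with a median log2 ratio of -0.22. Marker-rich barcodes gave 3 of 11 lower, 0 higher and a median of -0.06, where 10.9% of all genes were lower. Alox5, the lipoxygenase that starts leukotriene synthesis, was at 236 and 257 CPM (0.92, 0.67 to 1.24), and its partner Alox5ap at 905 and 1051 CPM (0.86, 0.74 to 1.00). Hpgds, which forms prostaglandin D, was at 111 and 176 CPM (0.63, 0.40 to 0.97). The gene lower in all barcodes was the leukotriene exporter Abcc1, with 10 and 106 UMIs (0.42, 0.20 to 0.80), and at 0.63 with each barcode weighted equally. Ptgs2, the inducible cyclooxygenase, turned on the barcodes with little marker RNA. It had 25 and 184 UMIs in all barcodes (0.60) but 1 and 130 in marker-rich ones (0.04), and its ratio was 1.11 at the epithelial limit of 2.

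Tnf, a central inflammatory cytokine, ranked first among the lower genes named by rule further on. It was at 58.0 and 320 CPM, with 13 and 318 UMIs, a ratio of 0.18 (0.10 to 0.31), and at 0.19 in marker-rich barcodes. It had a UMI in 21.3% of KO-labelled mast cells (10.7% to 35.7%) and in 42.6% of WT-labelled ones (36.7% to 48.8%). At 1000 UMIs per barcode these shares were 10.9% and 27.0%, with 1 and 28 shallower barcodes left out. The Tnf ratio was 0.22 in barcodes with macrophage markers, 0.35 in those with T cell markers, 0.48 in those with epithelial markers and 1.22 in those with neutrophil markers.

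Il4, the type 2 cytokine, was frequent in mast cells of both libraries. It had a UMI in 31.9% and 40.1% of them against 0.348% and 1.02% of barcodes with T cell markers, at median depths of 2799 and 2672 UMIs against 3302 and 2582. At 1000 UMIs per barcode these shares were 19.6% and 22.5% against 0.351% and 0.280%. Its level was 120 and 210 CPM (0.57, 0.37 to 0.86). Il6 had a UMI in 29.8% and 19.9% of mast cells against 1.05% and 1.48%, and stood at 232 and 156 CPM (1.49, 1.07 to 2.05). At 1000 UMIs per barcode 8.70% (2.42% to 20.8%) and 6.97% (4.11% to 10.9%) of mast cells had an Il6 UMI, with overlapping intervals. Single mast cell barcodes held up to 14 and 19 Il6 UMIs. Il13 had 4 and 48 UMIs. Il3, Il5, Il9 and Csf2 had 0 UMIs in both, where a floor of 3 counts stands at 13.4 and 3.01 CPM. Over the whole list, 1 of 19 tested genes was past 2-fold higher and 4 lower, where 6.29% and 9.73% of all genes were. The median log2 ratio of the 19 was 0.11. In marker-rich barcodes it was 1 of 15 higher and 6 lower, at -0.56, where 5.14% and 10.9% of all genes were higher and lower.

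Among chemokines, Ccl2, which attracts monocytes, was at 959 and 720 CPM (1.33, 1.14 to 1.55), but at 0.87 with the epithelial limit of 2. Ccl7, a related ligand, was the gene past 2-fold higher, with 76 and 162 UMIs (2.08), all of the KO-labelled ones in 5 barcodes. At the epithelial limit of 2 its ratio was 0.42. Ccl4, an inflammatory chemokine, was at 406 and 856 CPM (0.47, 0.38 to 0.59), and at 0.68 in marker-rich barcodes. Cxcl2 and Il1b, typical of neutrophils and macrophages, turned on which barcodes were counted. Cxcl2 had a ratio of 0.97 in all barcodes and 0.21 in marker-rich ones, and Il1b 1.55 and 0.51. Cxcl2 had a UMI in 12.8% and 38.6% of mast cells against 20.6% and 38.6% of barcodes with T cell markers. At 1000 UMIs per barcode the shares were 10.9% and 26.6% against 9.47% and 20.0%. Single mast cell barcodes held up to 229 and 205 Cxcl2 UMIs.

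Early response genes are induced within minutes of a stimulus or of tissue handling. Of 31 tested in mast cells, 9 were past 2-fold lower and 3 higher. Their median log2 ratio was -0.39. Marker-rich barcodes gave 10 of 29 lower, 0 higher and a median of -0.58. The transcription factor subunits Fosb, at 1070 and 2552 CPM (0.42, 0.37 to 0.48), and Fos, at 1873 and 3907 CPM (0.48, 0.43 to 0.53), were among the lower genes. So were Egr1, at 651 and 1705 CPM (0.38, 0.32 to 0.45), and the phosphatase Dusp1, at 767 and 2047 CPM (0.37, 0.32 to 0.44). The NF-kB inhibitor Tnfaip3 was at 410 and 1061 CPM (0.39, 0.31 to 0.48). Dusp1 was lower still at the epithelial limit of 2, at 0.23. Fosb was at 0.55 with each barcode weighted equally and at 0.54 without the 5 deepest barcodes of each library. Not all early genes followed. Ier2 was at 633 and 386 CPM (1.64, 1.34 to 1.99), Jund at 3630 and 3186 CPM (1.14, 1.05 to 1.23), and Nfkbia at 1819 and 1444 CPM (1.26, 1.13 to 1.41).

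The 3 higher genes were Nr4a2, Socs3 and Bcl2a1b, and all 3 turned with the barcodes counted. In all barcodes Nr4a2 had 28 and 33 UMIs (3.77), Socs3 39 and 67 (2.58) and Bcl2a1b 56 and 99 (2.51). In marker-rich barcodes the ratios were 0.51, 0.35 and 0.58. Summed per marker-rich barcode, the 32 early response genes had a median of 279 UMIs per 10000 in the KO-labelled library (range 13.9 to 865) and 361 in the WT-labelled one (19.9 to 1370), with wide overlap. In barcodes with macrophage markers 12 of 32 early response genes were past 2-fold lower and 0 higher (median -0.75), where 5.26% of all genes were lower. With T cell markers it was 13 lower and 0 higher (-0.74), where 8.26% of all genes were lower. With neutrophil markers it was 6 lower and 1 higher (-0.28), where 15.2% of all genes were lower and the median of all genes was -0.17. With epithelial markers it was 6 lower and 1 higher (-0.44), where 8.04% of all genes were lower. The shares of all genes past 2-fold higher were 3.76%, 2.96%, 4.64% and 3.23% in these 4 classes, in the order given. The summed level per epithelial barcode was higher in the KO-labelled library, at medians of 170 and 158 UMIs per 10000. Differences between mast cells and these cells were not tested.

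**Figure D3:**
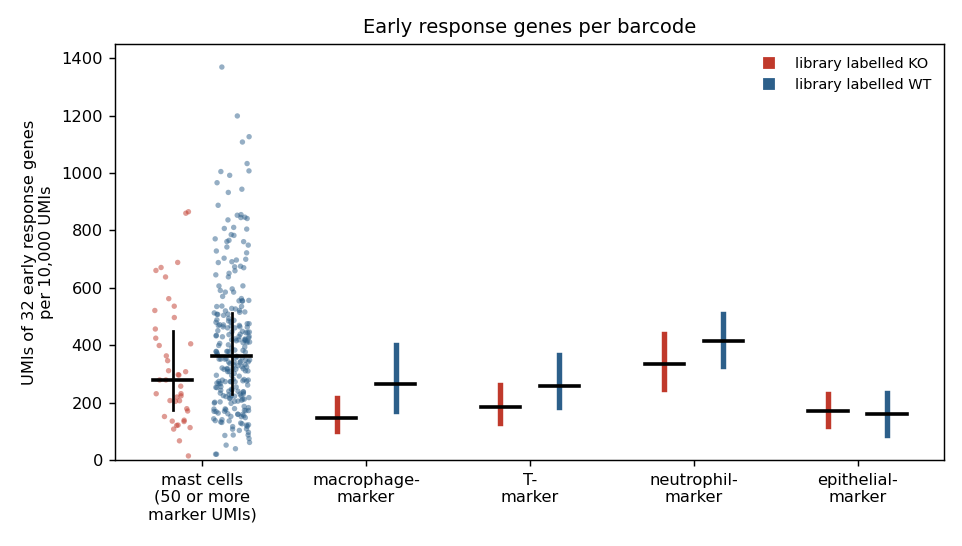
UMIs of 32 early response genes per 10000 UMIs, by library. Points are the 42 and 255 marker-rich mast cell barcodes; vertical bars span the quartiles and horizontal lines are medians, 279 and 361 in mast cells, with the WT-labelled median higher in all classes shown but the epithelial one.

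Named by a rule, the 12 higher genes were Rprm, Clic1, Dtnbp1, Pdcd10, Cd63, Mrpl18, Sec11c, Os9, Mrps16, Rab20, Erp44 and Abracl. The 12 lower ones were Tnf, Mt1, Dnajb9, Dusp18, Snhg1, Ube2v2, Dusp1, Egr1, Kdm6b, Rbm38, Tnfaip3 and Fosb. The rule ranked genes by the interval bound nearest to 1 and left out those lower in mast cells than in other barcodes or with over 50% of their UMIs in 5 barcodes of the library where they were higher. All 24 but Cd63 were past 2-fold in all barcodes. In marker-rich ones all 24 had such ratios, though Dtnbp1, with 16 and 30 UMIs, was below the minimum of 50 there. Sec11c, a signal peptidase subunit, was at 705 and 351 CPM (2.01, 1.65 to 2.43), and its ratio was 2.04 in barcodes with macrophage markers. Os9, a lectin of the degradation of misfolded proteins, was at 120 and 45.2 CPM (2.66, 1.59 to 4.39). Erp44, an endoplasmic reticulum thiol protein, was at 103 and 38.2 CPM (2.69, 1.53 to 4.63), and its ratio was 2.43 in barcodes with T cell markers. Dnajb9, a co-chaperone of the endoplasmic reticulum, was lower at 40.1 and 199 CPM (0.20, 0.09 to 0.39). Its ratio was 0.32 in barcodes with macrophage markers and 0.44 in those with epithelial markers. With neutrophil and T cell markers it was 0.53 and 0.71. Dtnbp1, dysbindin, a subunit of a complex that builds lysosome-related organelles, was at 107 and 35.2 CPM (3.04, 1.73 to 5.26).

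Rprm, which encodes reprimo, a protein linked to cell cycle arrest, was far above the other barcodes in mast cells of both libraries. It was at 214 and 80.4 CPM in mast cells (2.66, 1.82 to 3.86) and at 1.67 and 0.767 CPM in the other barcodes. Clic1, a chloride channel protein, was at 892 and 420 CPM (2.12, 1.79 to 2.52), and its ratio was 2.29 in barcodes with T cell markers and 2.75 in those with neutrophil markers. Ube2v2, a ubiquitin-conjugating enzyme variant, was at 165 and 528 CPM (0.31, 0.22 to 0.44). Its ratio was between 0.94 and 1.39 in the 4 other cell classes. Mt1, a metallothionein, was at 281 and 997 CPM (0.28, 0.21 to 0.36). The Mt1 ratio was 0.21 in barcodes with neutrophil markers and 0.39 in those with macrophage markers. With T cell and epithelial markers it was 0.86 and 1.17. Of the 12 lower genes, 7 were also past 2-fold lower in barcodes with macrophage markers, 5 of 11 tested with T cell markers, 4 of 11 with neutrophil markers and 3 of 12 with epithelial markers. Of the 12 higher genes, 1 of 11, 2 of 11, 1 of 11 and 1 of 12 were higher there. The shares over all genes in these classes are those given with the early response genes. The 24 genes were chosen for their ratio in mast cells, so these counts do not show what is particular to them. At the epithelial limit of 2, Sec11c, Abracl, Mrps16 and Rab20 were short of 2-fold, at 1.997, 1.98, 1.89 and 1.76.

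**Figure D4:**
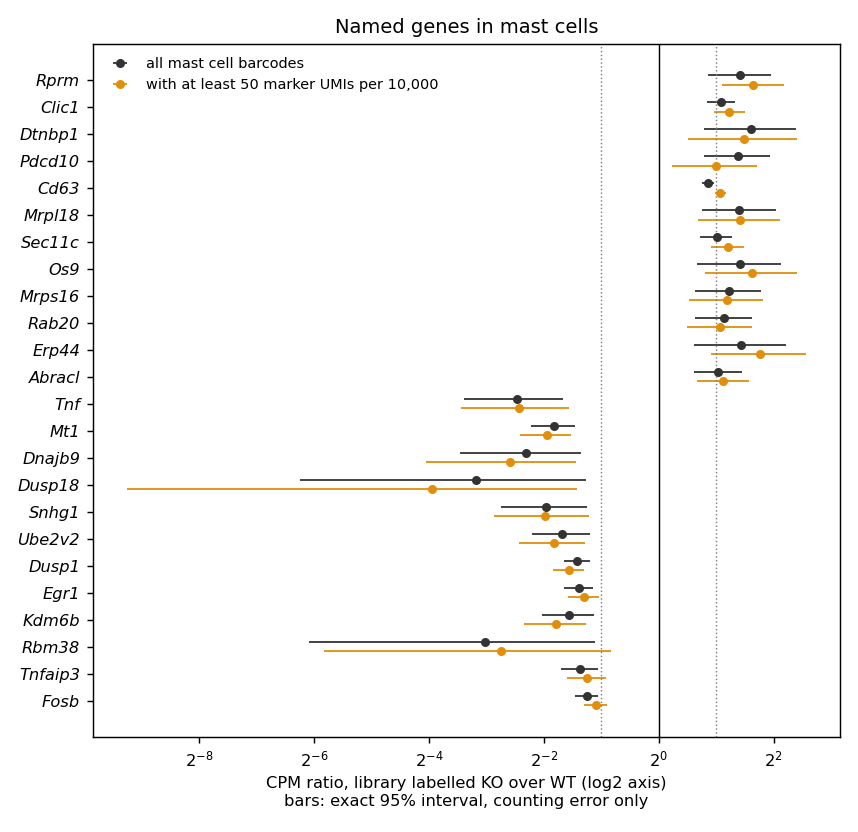
Ratio of KO-labelled over WT-labelled CPM for the 24 named genes on a log2 axis, in all mast cell barcodes (dark) and in marker-rich ones (orange), with exact 95% intervals. Dotted lines mark 2-fold; Tnf is at 0.18 and 0.19.

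Of 14 cell cycle genes tested, 3 were past 2-fold higher and 0 lower (median log2 ratio 0.50), and in marker-rich barcodes 5 of 14 were higher and 0 lower (0.66). In all barcodes 6.29% of all genes were higher and 9.73% lower, and in marker-rich ones 5.14% and 10.9%. Few barcodes held the UMIs of the cell cycle genes. Mki67, a marker of cycling cells, had 34 and 67 UMIs (2.25, 1.45 to 3.45), 94.1% of the KO-labelled ones in 5 barcodes, and a ratio of 4.11 without the 5 deepest barcodes of each library. The replication factors Mcm3 and Mcm6 had ratios of 4.29 and 3.26, but 1.81 and 1.31 without those barcodes, and Mcm6 was at 1.60 with each barcode weighted equally. A UMI in at least 3 of 8 cell cycle genes was found in 8 of 42 and 23 of 255 marker-rich barcodes, or 19.0% (8.60% to 34.1%) and 9.02% (5.80% to 13.2%), at median depths of 5622 and 7833 UMIs against 2711 and 2649 for all. Of 13 heat shock genes 1 was higher and 1 lower (median 0.17), and of 8 interferon genes 0 and 2 (median 0.22). Hspb1, the higher heat shock gene, had 62 and 14 UMIs, all of the KO-labelled ones in 5 barcodes, and 3 and 6 in marker-rich barcodes.

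Of 19 adhesion genes tested, 2 were past 2-fold higher and 4 lower, where 6.29% and 9.73% of all genes were. The median log2 ratio of the list was -0.15. Marker-rich barcodes gave 1 of 15 higher, 3 lower and a median of -0.34. Itgb7, the integrin subunit that pairs with Itgae for residence in gut epithelium, was at 299 and 121 CPM (2.48, 1.81 to 3.37), and at 2.68 in marker-rich barcodes. Itgb7 had a UMI in 48.9% and 31.6% of mast cells, and single barcodes held up to 12 and 5. The shares at 1000 UMIs per barcode were 17.4% (7.82% to 31.4%) and 12.3% (8.45% to 17.1%), with overlapping intervals. Itgae, the partner of Itgb7, was at 326 and 265 CPM (1.23, 0.93 to 1.60). Itgb1, the other higher gene, had 46 and 63 UMIs (3.24), but 7 and 53 in marker-rich barcodes (0.69). Cd53, a leukocyte tetraspanin, was at 241 and 533 CPM (0.45, 0.34 to 0.60), and at 0.52 without the 5 deepest barcodes of each library.

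Within the marker-rich mast cells the mucosal proteases dominated nearly everywhere. Mcpt1 was a median of 51.6% and 53.8% of Mcpt1 and Mcpt2 UMIs in the 40 and 226 barcodes with at least 20 of them, and lay between 25% and 75% in 34 and 173. Mcpt4, Tpsb2 and Cma1 together were a median of 6.15% and 5.17% of the marker UMIs, with a range from 0% to 82.3% and to 70.2%. Their share was above 25%, a limit set with these data in view, in 3 of 42 and 25 of 255 barcodes, or 7.14% (1.498% to 19.5%) and 9.80% (6.45% to 14.1%).

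Genes outside the rule differed between the 25 WT-labelled barcodes of this connective tissue pattern and the other 230, named after their values were seen. Mrgprb2 was at 523 and 41.6 CPM in the 2 sets, 12.6-fold higher (7.64 to 20.7), with a UMI in 60.0% and 10.9% of barcodes. Its relative Mrgprb1 was at 284 and 24.95 CPM, 11.4-fold higher (5.79 to 22.2), and Hdc at 732 and 197 CPM, 3.71-fold higher (2.64 to 5.13). Itgae had 0 UMIs in the 25 and 245 in the 230. With a floor of 3 counts in place of the 0 it was 6.49-fold lower, a ratio of 0.15 (0 to 0.19). Mcpt9 had 0 and 257 UMIs, 6.81-fold lower with the same floor, a ratio of 0.15 (0 to 0.18). Tph1 was at 74.7 and 808 CPM and Scin, an actin-severing protein, at 14.9 and 444 CPM. Ifitm1, an interferon-induced membrane protein, was at 418 and 3882 CPM. Kit, at 1449 and 1482 CPM, was level. Fcer1a was at 1061 and 1001 CPM, but it is a gene of the rule and counts among the marker UMIs that made the 2 sets. Of the 3 KO-labelled barcodes, which hold 6115 UMIs, 0 had a UMI of Itgae or Mcpt9, and they held 1 UMI of Mrgprb2. Itgae and Mcpt9 were at 435 and 566 CPM in the other marker-rich KO-labelled barcodes. Hdc had 0 UMIs in the 3 against 411 CPM in the others. At this depth 0 counts show little about differences of that size, for Hdc as for Itgae and Mcpt9. Ifitm1 had 1 UMI in the 3, or 164 CPM against 5780 in the others, the direction seen in the WT-labelled library. Tph1 had 7 UMIs in the 3, or 1145 CPM against 953 in the others, which is not that direction. Genes of macrophages were also higher in the 25: Lyz2 was at 1943 and 304 CPM and Apoe at 1285 and 194 CPM, with a UMI in 36.0% and 56.0% of the 25. Their part in the differences was not tested.

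**Figure D5:**
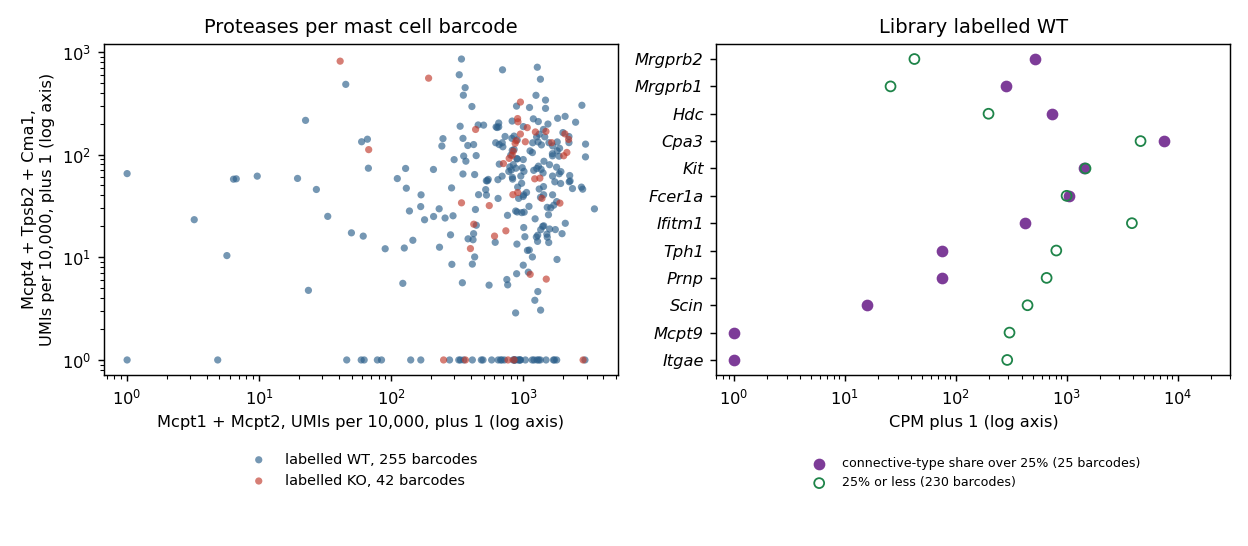
Left, each marker-rich mast cell barcode by its mucosal proteases (Mcpt1 and Mcpt2, x axis) and its connective tissue proteases (Mcpt4, Tpsb2 and Cma1, y axis), in UMIs per 10000 plus 1 on log axes. Right, CPM plus 1 (log axis) of genes other than these proteases in the 25 and 230 WT-labelled barcodes. Cpa3 and Fcer1a among them are genes of the rule. Itgae and Mcpt9 are at 0 in the 25.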

How the data were processed

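The authors deposited, for each library, a matrix of UMI counts per gene and barcode, made with Cell Ranger 7.2.0 per the file headers. The genome build was GRCm39, per the submitters' processing notes. The sources used here do not give the rule for calling cells or the annotation release, and the RNA protocol in the labels describes a bulk library. Depth, the member rule and the limits are given with the results above. UMIs were summed over mast cell barcodes per library. Shares have exact Clopper-Pearson intervals at 95% and ratios exact conditional binomial intervals, both covering counting error only, and a floor of 3 counts replaces a 0. No test was possible with 1 library per genotype. The computation was tested on simulated data. Automatic Scrublet calls marked 2 and 0 barcodes, which is no working call, so doublets were kept; removing the highest 0.8% per 1000 barcodes was an alternative. Other cell classes are barcodes outside the rule with at least 3 markers of a class, or 2 of Epcam, Krt8 and Krt18 above the epithelial limit. The members, lists and limits were chosen with earlier results of these data known. The limits of 50 marker UMIs per 10000, 25% connective tissue proteases, 4 Mcpt8 UMIs and 3 cell cycle genes, the other cell classes and the genes compared in them were set after seeing these values. The genes named in text were the 15 leading ones, the 12 higher and 12 lower by the rule stated with the results, and list members as examples. These leave out mitochondrial, ribosomal, haemoglobin, immunoglobulin, T cell receptor, sex-linked and predicted genes. Computation used Python 3.11.15, numpy 2.4.6, scipy 1.17.1, pandas 2.3.3, scanpy 1.11.5, anndata 0.12.19, scikit-learn 1.9.0 and matplotlib 3.10.9.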

Additional observations from a re-analysis of the deposited data

How the results depend on the processing

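The alternatives removed doublets, asked for 4 marker genes, set the epithelial limit to 2 per 10000 or the mitochondrial limit to 10%, weighted barcodes equally, centred the ratios, left out the 5 deepest barcodes, or lowered the UMI minimum to 20. Added after seeing the data were the marker-rich barcodes, the shares without an epithelial limit, and the denominator of barcodes below that limit. The KO-labelled and WT-labelled shares moved beyond their interval at the epithelial limit of 2 (0.615% and 2.53%), thinned to 1000 UMIs (0.749% and 2.54%), over Ptprc-positive barcodes (2.03% and 2.70%), without the epithelial limit (2.44% and 3.69%) and over barcodes below it (3.08% and 4.31%). With no epithelial limit but at least 50 marker UMIs per 10000 the KO-labelled share was 1.55%. At a minimum of 20 UMIs, 599 genes were past 2-fold higher and 801 lower. The median of the cytokine list was -0.56 in marker-rich barcodes. Ratios of named genes past 2-fold that turned were, in marker-rich barcodes, Bcl2a1b (0.58), Itgb1 (0.69), Nr4a2 (0.51) and Socs3 (0.35). Nr4a2 also turned with doublets removed (0.72), with 4 marker genes (0.49) and without the deepest barcodes (0.95), and Socs3 with 4 marker genes (0.59). Ccl7 turned at the epithelial limit of 2 (0.42), and Cma2 (0.57) and Hspb1 (0.94) without the deepest barcodes. Of the other values of named genes, 742 stayed within their interval and 127 moved beyond it. No paired analysis was possible because each genotype has 1 library, and leaving out a replicate could not be done. Depth also limits the values: the 47 KO-labelled barcodes hold 224240 UMIs, and the minimum of 50 UMIs per gene leaves 3196 genes.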
